A study of Mus musculus with 55 samples.

Results

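The Cyp2b genes of the mouse liver lie side by side on chromosome 7, and 4 of them, Cyp2b10, Gm45225, Cyp2b13 and Cyp2b9, were among the 4113 genes listed in the RNA tables of the series. Members were every listed gene whose name begins with Cyp2b, and the pseudogene Gm45225 that lies between Cyp2b10 and Cyp2b13. They were described together with the peaks and islands of 6 chromatin assays inside these genes and within 50 kb of them. RNA-seq covered whole livers of wild-type mice labelled untreated (WT, n = 5), of wild-type mice given TCPOBOP (WT + TCPOBOP, n = 5) and of Setd8-LKO mice given TCPOBOP (Setd8-LKO + TCPOBOP, n = 4). All were male C57Bl6 mice of 45 to 50 days, and TCPOBOP, an agonist of the nuclear receptor CAR, was injected once at 3 mg/kg, 24 h before the livers were taken. Setd8-LKO mice carry floxed Setd8 alleles and a Cre driven by the albumin promoter, which is active in hepatocytes, so that other liver cells keep the gene. The labels call the WT mice untreated, while corn oil appears as vehicle in the methods and a mock with DMSO in the Reporting Summary, so an injection may or may not differ between the groups. Chromatin was assayed in WT and in Setd8-LKO + TCPOBOP livers only, so that genotype and treatment change together there and cannot be told apart.

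CAR stays in the cytoplasm of the resting hepatocyte. When a drug or TCPOBOP activates it, CAR enters the nucleus, pairs with the retinoid X receptor RXR and binds DNA at pairs of hexamers in the same orientation with 4 bases between them, called DR4. A phenobarbital-responsive enhancer with such elements lies upstream of Cyp2b10, and CYP2B RNA is the usual readout of CAR activity in liver. CYP2B enzymes are heme monooxygenases of the endoplasmic reticulum that oxidize drugs, steroids and fatty acids with electrons from the reductase Por. In mice Cyp2b9 and Cyp2b13 are known for much higher levels in female than in male liver, whereas Cyp2b10 is the member known for induction by CAR agonists.

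All 4 genes lie on the plus strand of chromosome 7 in mm10, the build of the files. Cyp2b10 (ENSMUSG00000030483) spans chr7:25897620-25926624. Gm45225 (ENSMUSG00000108589), annotated as an unprocessed pseudogene, spans chr7:25981502-25988460. Cyp2b13 (ENSMUSG00000040583) spans chr7:26061497-26096197 and Cyp2b9 (ENSMUSG00000040660) chr7:26173411-26210661. The union of the annotated exons was 2112 bp for Cyp2b10, 1139 bp for Gm45225, 1875 bp for Cyp2b13 and 1876 bp for Cyp2b9.

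RefSeq promoter windows in GRCm38.p6 were found for 3 of the 4 members, and the stretches upstream of the annotated starts are shown because the genes differed widely in their counts. They are given on the plus strand, for Cyp2b10 from chr7:25897408-25897619, for Cyp2b13 from chr7:26061245-26061494 and for Cyp2b9 from chr7:26173159-26173408, and capitals mark the bases that differ between Cyp2b13 and Cyp2b9.

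Cyp2b10: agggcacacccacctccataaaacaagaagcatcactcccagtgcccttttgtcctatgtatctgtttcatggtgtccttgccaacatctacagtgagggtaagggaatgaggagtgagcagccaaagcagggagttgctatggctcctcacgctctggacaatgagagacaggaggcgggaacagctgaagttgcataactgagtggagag

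Cyp2b13: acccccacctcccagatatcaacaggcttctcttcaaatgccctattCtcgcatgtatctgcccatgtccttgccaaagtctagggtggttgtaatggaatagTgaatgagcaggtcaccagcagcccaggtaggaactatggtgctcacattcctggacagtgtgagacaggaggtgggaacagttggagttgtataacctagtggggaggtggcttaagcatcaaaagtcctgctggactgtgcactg

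Cyp2b9: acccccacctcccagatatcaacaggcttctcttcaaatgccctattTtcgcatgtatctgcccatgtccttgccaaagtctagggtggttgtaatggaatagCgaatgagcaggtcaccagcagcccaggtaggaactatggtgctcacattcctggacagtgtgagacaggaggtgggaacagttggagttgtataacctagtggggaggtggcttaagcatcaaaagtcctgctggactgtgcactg

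The Cyp2b13 and Cyp2b9 stretches shared 248 of 250 bases (99.2%) and differed at 2. Cyp2b10 was 77.2% identical to either of them over 202 aligned bases with 8 gaps. None of the 3 stretches held the letters TATAAA within 50 bases of the start on the gene strand, which 2.63% of the 32851 RefSeq promoter windows did. The Cyp2b10 stretch stops at an annotated start before the RefSeq one, at 212 bases instead of 250. It thus holds only part of the 50 bases compared. None held a DR4 element, read as AGGTCA repeated in the same orientation with 4 bases between the copies and at most 2 mismatches on either strand, which 3.02% of the RefSeq windows of 300 bases held.

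The counts used here are raw reads per gene and the authors' normalized counts, which equal the raw count times 1 factor per library, from 1.03 to 1.25 in WT, from 1.09 to 1.39 in WT + TCPOBOP, and from 0.752 to 0.855 where the label is Setd8-LKO. The tables list only genes that the authors selected as changed in the same libraries, 3900 for Setd8-LKO + TCPOBOP against WT and 719 for WT + TCPOBOP against WT, with 506 in both. A gene is called here when it changed by at least 1 on the log2 scale and its p in edgeR's quasi-likelihood test, adjusted after Benjamini and Hochberg, was under 0.05. Raw counts over the listed genes summed to between 1389901 and 12780869 per library and table, which is a sum over selected genes and not the depth, for which an average of 40000000 reads per library is given. Kmt5a, the gene of Setd8, had 613, 567, 761, 563 and 715 normalized counts in WT and 1341, 1465, 1338 and 1313 in the libraries labelled Setd8-LKO, so it went against the direction the labels name (log2 fold change 1.08, SE 0.14, adjusted p = 0.000151 in edgeR). A count over the whole gene cannot resolve an exon deletion, and these libraries are named by their labels throughout. Of 10 hepatocyte markers, 6 were listed for the libraries labelled Setd8-LKO and summed to 467784 to 664572 normalized counts against 1150360 to 1882210 in WT, and 5 were called lower (Alb, Ttr, Cps1, Serpina1a and Cyp2e1). All 6 cholangiocyte markers were listed, with sums of 1627 to 7466 against 427 to 690. Of 7 stellate cell and fibroblast markers 3 were listed, with sums of 4813 to 11108 against 1947 to 2951, 1 of 8 macrophage and leukocyte markers was listed at 29 to 40 against 2 to 44, and 0 of 5 endothelial markers were listed. In WT + TCPOBOP 1 hepatocyte marker was listed, Hpx at 210570 to 324259 against 56722 to 157481 in WT, and 1 stellate marker, Lrat at 113 to 166 against 268 to 389. No listed marker summed to 0, and their part in the Cyp2b values was not tested. In such bulk samples, fewer cells of a type and less RNA per cell cannot be told apart.

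Among the 716 genes ranked for WT + TCPOBOP against WT, Cyp2b10 stood in the lower part in WT. In WT + TCPOBOP it stood at a level reached by few of them. Cyp2b9 and Gm45225 stood near the bottom of the lists in WT. Cyp2b10, the enzyme by which CAR activation is usually read, had 28, 25, 70, 28 and 106 normalized counts in the WT libraries. It had 55856, 61594, 57008, 59425 and 53827 in WT + TCPOBOP, so the lowest treated library lay far above the highest WT library. The means were 51.4 ± 35.8 (SD, n = 5) and 57542 ± 3037 (SD, n = 5), and the log2 fold change was 10.12 (SE 0.54, 95% interval 9.06 to 11.19), a 1116-fold rise with an adjusted p of 2.19e-06 (edgeR's quasi-likelihood test). The libraries were labelled as run A or run B, and what a run stands for is not given. Within the 2 runs the log2 ratio of the means was 9.74 and 11.06. The coefficient of variation was 69.6% among the WT livers and 5.28% among the treated ones. In counts per kb of exon, where genes can be compared, Cyp2b10 stood at rank 476 of 716 genes of the table in WT and at rank 15 in WT + TCPOBOP.

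Cyp2b13, the other member known from female liver, had 190, 177, 159, 196 and 241 normalized counts in WT and 1672, 1809, 1662, 1581 and 1478 in WT + TCPOBOP. The groups did not overlap. The rise from 193 ± 30.6 (SD, n = 5) to 1640 ± 122 (SD, n = 5) was 8.52-fold (log2 fold change 3.09, SE 0.16, 95% interval 2.78 to 3.40, adjusted p = 2.19e-06 in edgeR's quasi-likelihood test). Within the runs it was 3.11 and 3.06 on the log2 scale.

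Gm45225, which encodes no known protein, had 0 reads in 4 WT libraries and 1 in the fifth. In WT + TCPOBOP it had 1137, 512, 316, 1101 and 970 normalized counts, with a mean of 807 ± 371 (SD, n = 5). With 1 read in WT a fold is not well defined, and the ratio of the summed, scaled counts was 3668 with an exact 95% counting interval of 658 to 144907, which covers counting error only. The gene was called higher (adjusted p = 4.30e-06, edgeR's quasi-likelihood test), and without the WT library that holds the read the untreated group stood at 0. It passed edgeR's filter on low counts through the treated libraries only and was selected on these libraries, so this p is no independent support.

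Cyp2b9, the female-predominant member, behaved differently among the treated wild-type livers. It had 2, 1, 3, 1 and 3 normalized counts in WT, from 10 raw reads in all, and 4, 157, 8, 54 and 525 in WT + TCPOBOP. Replicates 1 and 3 thus stood barely above WT while replicate 5 had 131 times the count of replicate 1, although the groups did not overlap. The gene did not pass edgeR's filter on low counts in this comparison and has no fitted value there. The ratio of the summed, scaled counts was 73.6, with an exact 95% counting interval of 39.8 to 154 that leaves out the spread between livers. Without the filter the log2 fold change was 6.02 (adjusted p = 0.0268), and with all 3 groups in one edgeR fit it was 6.03 (adjusted p = 0.0110). Within the runs the log2 ratio of the means was 4.59 and 7.59.

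For each of the 4 members an exact permutation test (two-sided) of the log2(normalized count + 1) values returned p = 0.00794, which is the minimum for 5 against 5 libraries. Of the 679 genes tested in WT + TCPOBOP against WT, 58.2% were called higher, 20.6% were called lower and 82.0% had groups that did not overlap, since the table holds genes selected on these libraries. The count of 3 called members of 3 tested is therefore read for the size of the changes only.

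The plot of normalized counts by library shows the same values for the 3 groups.

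**Figure D1:**
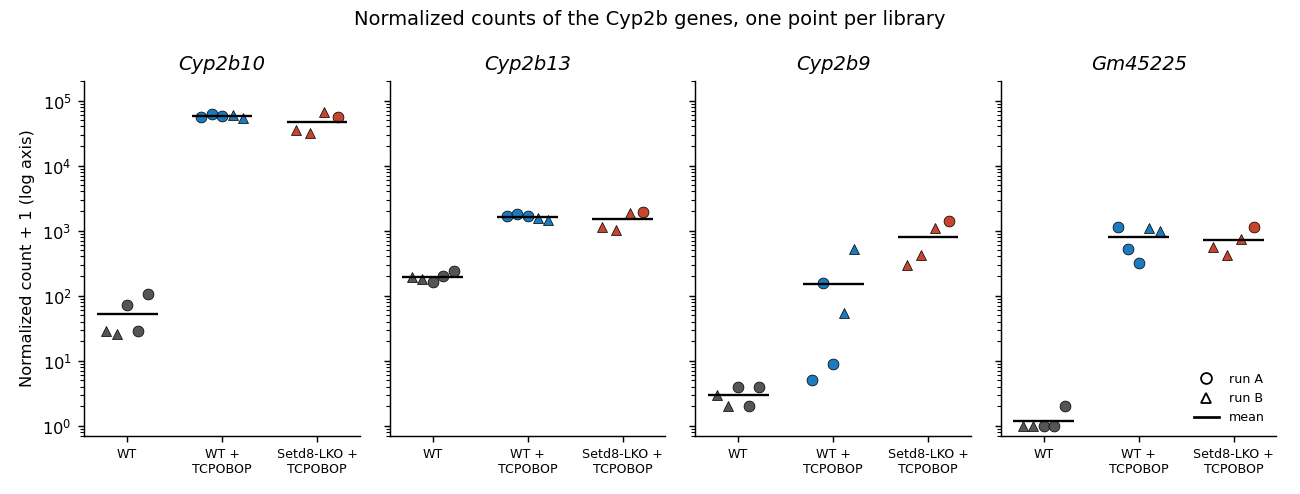
Normalized count + 1 on a log axis for each Cyp2b gene, one point per library (circles run A, triangles run B, bars the mean) in WT (n = 5), WT + TCPOBOP (n = 5) and Setd8-LKO + TCPOBOP (n = 4). Treated Cyp2b10 libraries sit between 31592 and 66038 against 25 to 106 in WT, and Cyp2b9 spreads from 4 to 525 in WT + TCPOBOP.

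In the libraries labelled Setd8-LKO + TCPOBOP all 4 members were also far above WT. Cyp2b10 had 35767, 31592, 66038 and 55164 normalized counts, with a mean of 47140 ± 16254 (SD, n = 4). No library came near the highest WT value of 106. The log2 fold change against WT was 9.84 (SE 0.61, 95% interval 8.64 to 11.03), a 915-fold rise with an adjusted p of 2.16e-06 in edgeR's quasi-likelihood test, and 9.66 and 10.71 within the runs. Per kb of exon the gene stood at rank 24 of 3888 genes of this table, against rank 1855 in WT.

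Cyp2b13 had 1129, 1030, 1873 and 1960 normalized counts in these libraries, a mean of 1498 ± 486 (SD, n = 4). The rise over WT was 7.78-fold (log2 fold change 2.96, SE 0.23, 95% interval 2.5 to 3.41, adjusted p = 7.31e-06 in edgeR's quasi-likelihood test), and 3.30 and 2.87 within the runs. The pseudogene Gm45225 had 553, 428, 745 and 1149 normalized counts, a mean of 719 ± 315 (SD, n = 4), against the single WT read. Its ratio of summed, scaled counts was 3252, with an exact 95% counting interval of 583 to 128478, and it was called higher (adjusted p = 8.14e-07, edgeR's quasi-likelihood test). Again Gm45225 passed the filter on low counts through the treated libraries only, so this p is no independent support.

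Cyp2b9 had 298, 422, 1098 and 1414 normalized counts, a mean of 808 ± 536 (SD, n = 4), so each of these libraries was above WT + TCPOBOP replicates 1 to 4 and 2 of them were above replicate 5. The log2 fold change against WT was 8.46 (SE 0.61, 95% interval 7.27 to 9.65, adjusted p = 4.52e-06 in edgeR's quasi-likelihood test), and 9.24 and 8.66 within the runs. From the 10 WT reads, the ratio of summed, scaled counts was 365 with an exact 95% counting interval of 198 to 761. With so few WT reads Cyp2b9 passed the filter through the libraries labelled Setd8-LKO only, so its adjusted p is no independent support.

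Here too the exact permutation test returned p = 0.00794 for each member, the minimum for 5 against 4 libraries. Of the 3726 genes tested, 55.2% were called higher and 37.5% lower, and 86.8% had groups that did not overlap. The comparison shares its WT libraries with the one above, so the fold changes of both are set side by side only. They were 9.84 and 10.12 on the log2 scale for Cyp2b10, and 2.96 and 3.09 for Cyp2b13.

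Scaling by the listed genes instead of by the authors' factors shifted the median log2 fold change of all genes by -0.81 (DESeq2 size factors) or 0.02 (edgeR's TMM) in the libraries labelled Setd8-LKO and by -1.17 (DESeq2 size factors) or -0.98 (TMM) in WT + TCPOBOP. Calls in the former then went from 2056 higher and 1399 lower to 905 and 1483 with DESeq2 size factors and 2085 and 1383 with TMM, and in the latter from 395 and 140 to 76 and 204 or to 90 and 204. With DESeq2 size factors Cyp2b10 was at 9.13 on the log2 scale in the former, and at 8.94 or 9.13 with the respective scaling in the latter. Cyp2b13 was at 2.21 and at 1.92 or 2.1, all called.

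Between the treated groups, Cyp2b10, Cyp2b13 and Gm45225 did not differ beyond the spread of the livers, and Cyp2b9 was higher in the libraries labelled Setd8-LKO in part of the tests. These 2 groups share the treatment and differ in genotype, and the 506 genes listed in both tables were fitted over all 14 libraries. The log2 difference for Cyp2b10 was -0.29 (SE 0.37, 95% interval -1.02 to 0.44), with an unadjusted p of 0.453 in edgeR and 0.214 in the exact permutation test. For Cyp2b13 it was -0.13 (SE 0.21, 95% interval -0.55 to 0.28), with p = 0.543 unadjusted in edgeR and 0.421 in the exact permutation test. For Gm45225 it was -0.17 (SE 0.40, 95% interval -0.94 to 0.61), with p = 0.679 unadjusted in edgeR and 0.833 in the exact permutation test. The intervals leave room for differences of up to about the width given, and the signs of Cyp2b10, Cyp2b13 and Gm45225 turned to 0.00056, 0.15 and 0.11 with TMM scaling, which moves the median of all genes by 0.29.

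Cyp2b9 differed by 2.43 on the log2 scale (SE 0.93, 95% interval 0.61 to 4.25, unadjusted p = 0.0198 in edgeR against 0.0556 in the exact permutation test, which cannot go below 0.00794). Adjusted over the 18512 genes that the authors tested, the edgeR p was 1. Adjusted over the 506 genes fitted, an alternative chosen after seeing the data, it was 0.0372. The groups overlapped, since WT + TCPOBOP replicate 5 at 525 exceeded 2 of the 4 libraries labelled Setd8-LKO, and without it the log2 difference was 3.85. Within run A, which holds 1 library labelled Setd8-LKO, the log2 ratio was 4.65, and within run B it was 1.07. Of the genes fitted, 11.1% were called higher, 19.0% were called lower and 49.8% had groups that did not overlap, whereas 0 of the 4 members were called.

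**Figure D2:**
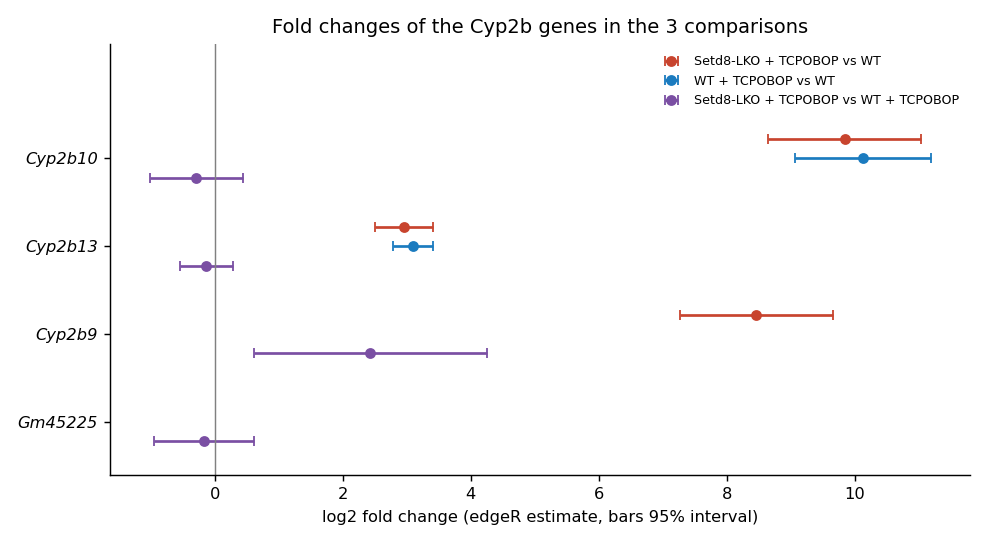
Log2 fold changes of the Cyp2b genes estimated by edgeR in the 3 comparisons, with 95% intervals as bars. Gm45225 against WT is left out because WT holds 1 read, and Cyp2b9 in WT + TCPOBOP against WT because it failed the filter on low counts. Between the treated groups the intervals of Cyp2b10, Cyp2b13 and Gm45225 include 0 and that of Cyp2b9 runs from 0.61 to 4.25.

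The order of the members differed between untreated and treated livers. In counts per kb of exon, WT livers held 103 ± 16.3 (SD, n = 5) for Cyp2b13, 24.3 ± 16.9 for Cyp2b10, 1.07 ± 0.53 for Cyp2b9 and a mean of 0.18 for Gm45225. In WT + TCPOBOP the order was Cyp2b10 at 27245 ± 1438 (SD, n = 5), Cyp2b13 at 875 ± 65.2, Gm45225 at 709 ± 326 and Cyp2b9 at 79.7 ± 117. The neighbours Cyp2b13 and Gm45225 lay within their spread of each other there. In the libraries labelled Setd8-LKO + TCPOBOP it was Cyp2b10 at 22320 ± 7696 (SD, n = 4), Cyp2b13 at 799 ± 259, Gm45225 at 631 ± 277 and Cyp2b9 at 431 ± 285. The means of the 3 lower members lay close beside the spread between libraries, but each of these libraries held this same order. Cyp2b13, Gm45225 and Cyp2b9 were at 602, 486 and 159 in replicate 1 and at 1045, 1009 and 754 in replicate 4. Differences between members were not tested.

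Taken as a share of Cyp2b10 in the same library, which removes the scaling, Cyp2b13 moved little between treated livers. Its normalized count was 2.66% to 2.99% of that of Cyp2b10 in WT + TCPOBOP and 2.84% to 3.55% in Setd8-LKO + TCPOBOP, whereas in WT it was 227% to 708%. Gm45225 was at 0.554% to 2.04% in WT + TCPOBOP and 1.13% to 2.08% in Setd8-LKO + TCPOBOP. Cyp2b9 was at 0.00716% to 0.975% in WT + TCPOBOP and 0.833% to 2.56% in Setd8-LKO + TCPOBOP, so its range there overlapped with that of 1 treated wild-type liver only, replicate 5.

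**Figure D3:**
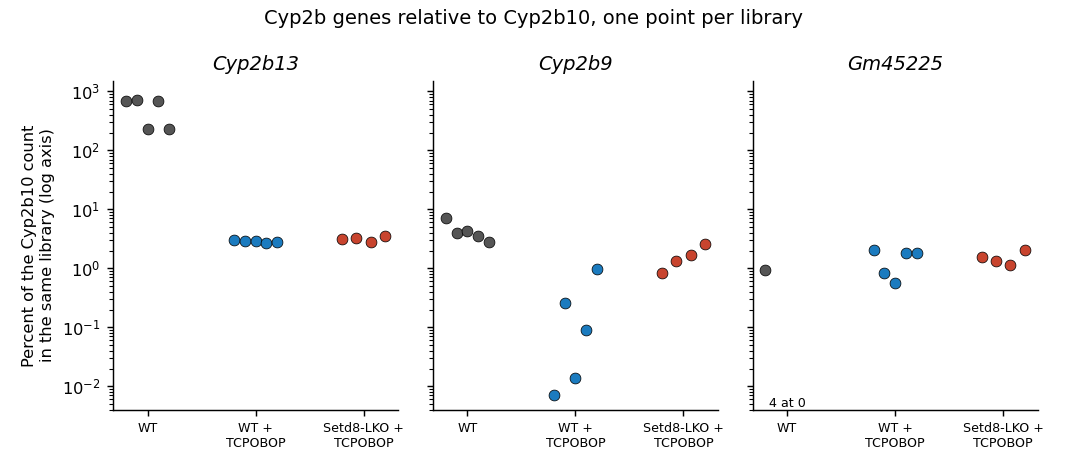
Normalized count of Cyp2b13, Cyp2b9 and Gm45225 as a percent of the Cyp2b10 count in the same library, on a log axis, one point per library and group. Cyp2b13 stays between 2.66% and 3.55% in all treated libraries, and Cyp2b9 runs from 0.00716% to 0.975% in WT + TCPOBOP.

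The members share transcript sequence, so part of their reads could be placed on more than 1 gene. Of all 50-base words in the annotated transcripts of Cyp2b13, 27.3% also occurred in another gene, with 8.0% in Cyp2b10, 10.8% in Cyp2b9 and 13.8% in Gm45225. For Gm45225 it was 26.0%, with 23.1% in Cyp2b13 and 7.61% in Cyp2b10, for Cyp2b9 11.2%, and for Cyp2b10 8.7%. How reads with several placements were counted is not given in the sources used here. Of the words of Cyp2b10, 6.94% occurred in Cyp2b13 and 3.95% in Gm45225. In WT + TCPOBOP the mean normalized count was 57542 for Cyp2b10, 1640 for Cyp2b13 and 807 for Gm45225. In livers rich in Cyp2b10 the uncertainty of the smaller counts is thus not bounded by the shares of their own words. The part of shared reads in the counts of Gm45225 and Cyp2b13 was not tested.

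Over the 14 libraries and the 506 genes in both tables, the genes whose log2 counts ran closest to Cyp2b10 were Akr1b7 (Pearson r = 0.993), Cyp2c55 (0.992), Gm45225 (0.992), Fyb2 (0.989) and Cyp2c29 (0.989). For Cyp2b13 they were Exosc8 (0.989), Cyp2b10 (0.988), Gstt3 (0.987), Cyp2c29 (0.986) and Gm45225 (0.986), and for Gm45225 they were Cyp2b10 (0.992), Cyp2c29 (0.989), Pnliprp1 (0.988), Cyp2c55 (0.987) and Akr1b7 (0.986). Cyp2b9 had other nearest genes, the antisense transcript Gm47547 (0.959), Dctd (0.910), Wnt5a (0.907), Prune1 (0.904) and Lratd1 (0.8995). These values describe libraries that fall into 3 groups and share their scaling.

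The rest of the CAR pathway was read from lists of 127 further genes, with 22, 39, 30, 14, 12 and 10 in the order below. In WT + TCPOBOP 3, 24, 15, 5, 5 and 2 of them were tested. Where the label is Setd8-LKO 4, 23, 16, 8, 10 and 7 were tested. The others were not listed as changed or failed the filter, and only the tested genes have values here. Their counts stand in tables of genes selected as changed, where 58.2% of all genes tested were called higher and 20.6% lower in WT + TCPOBOP, with a median of 1.34 on the log2 scale, and 55.2% and 37.5% in the libraries labelled Setd8-LKO, with a median of 1.16. On the list of the receptor and cofactors, CAR itself was not among the genes tested in either comparison. In WT + TCPOBOP 2 of 3 were called higher, the reductase Por at 2.51 on the log2 scale and Alas1, the first enzyme of heme synthesis, at 1.88. The coactivator Ppargc1a, at -1.41, was not called. Por and Alas1 were called higher at 2.17 and 1.14 in the libraries labelled Setd8-LKO. There Egfr, the growth factor receptor that holds CAR inactive, was called lower at -3.64, as was Ppargc1a at -1.48. The list had a median of 1.88 in WT + TCPOBOP and -0.17 in the libraries labelled Setd8-LKO.

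Of the phase I enzymes, which oxidize, reduce or hydrolyse drugs, 23 of 24 tested were called higher in WT + TCPOBOP (median 2.52 on the log2 scale) and 20 of 23 in the libraries labelled Setd8-LKO, with 2 lower (median 1.72), beside 58.2% and 55.2% of all genes called higher. The aldo-keto reductase Akr1b7 had the largest change among those called, 7.0 and 7.44. Among the Cyp2c enzymes, Cyp2c39 was at 6.78 and 7.08, Cyp2c55 at 6.01 and 5.70 and Cyp2c65 at 4.99 and 5.94. The WT mean of Cyp2c65 was 0.8 normalized counts, so its fold is not well defined. All of these log2 values were below the 10.12 and 9.84 of Cyp2b10.

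Of the phase II enzymes, which conjugate the products, 15 of 15 were called higher in WT + TCPOBOP (median 1.65) and 13 of 16 in the libraries labelled Setd8-LKO, with 3 lower (median 1.64), again beside 58.2% and 55.2% of all genes called higher. The estrogen sulfotransferase Sult1e1 was at 5.06 and 5.88, and the glutathione transferase Gstm3 at 3.26 and 4.67. Sult3a1 went from a mean of 0.2 to 97.8 normalized counts in WT + TCPOBOP, and Sult2a1 went from 0.6 to 484 where the label is Setd8-LKO. Of the transporters, 4 of 5 were called higher and 1 lower in WT + TCPOBOP (median 1.22), against 4 higher and 4 lower of 8 in the libraries labelled Setd8-LKO (median -0.58), where all genes stood at 55.2% higher and 37.5% lower. The efflux pump Abcc4 was at 1.64 and 3.30, and the organic anion carrier Slco1a1 at -1.61 and -4.07.

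Growth and stress targets of CAR were called higher in 3 of 5 cases in WT + TCPOBOP (median 1.98), no more than the 58.2% of all genes, among them the stress genes Gadd45b at 6.36 and Gadd45a at 3.11, and in 10 of 10 in the libraries labelled Setd8-LKO (median 3.95), beside 55.2% of all genes, led by the cyclin Ccnb1 at 5.80 and Gadd45b at 5.40. Ccnb1 was at 1.66 in WT + TCPOBOP and not called. Of the metabolic genes known to be lowered by CAR, 0 of 2 tested were called in WT + TCPOBOP, with Scd1, a fatty acid desaturase, at -1.33 and G6pc, the glucose-6-phosphatase, at -1.06. In the libraries labelled Setd8-LKO 6 of 7 were called lower and 1 higher (median -2.23), beside 37.5% of all genes called lower, with Scd1 at -3.80, the bile acid enzyme Cyp8b1 at -3.61 and the fatty acid hydroxylase Cyp4a14 at 3.20. Over the 6 lists, 47 genes were called higher and 1 lower in WT + TCPOBOP, and 50 and 17 in the libraries labelled Setd8-LKO. With DESeq2 size factors over the listed genes the counts called higher fell to 16 and 29, and with TMM they were 19 in WT + TCPOBOP and 50 in the libraries labelled Setd8-LKO.

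**Figure D4:**
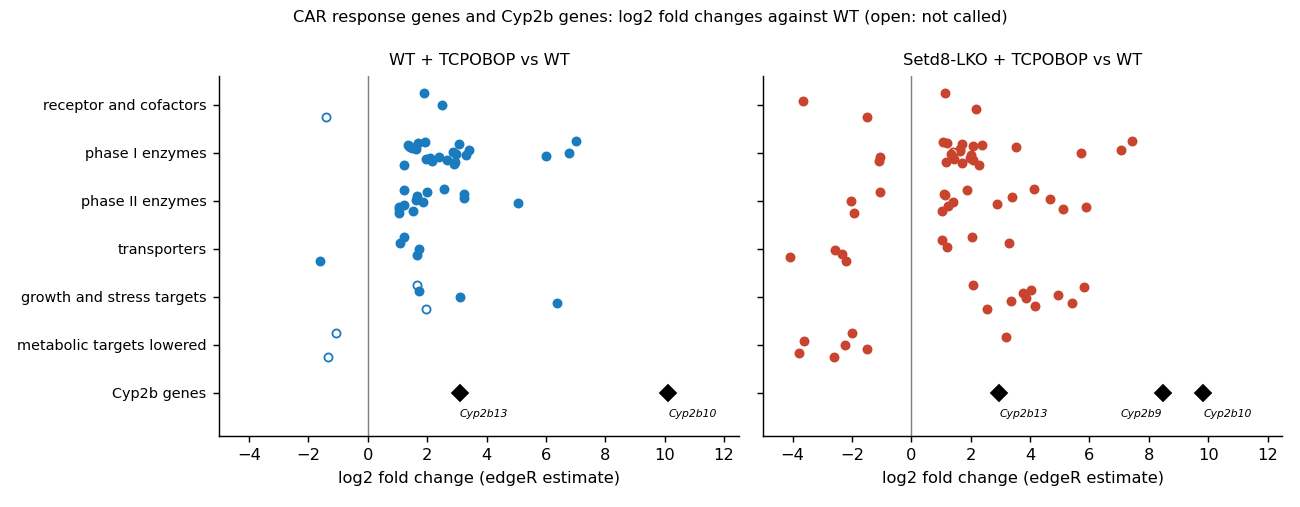
Log2 fold changes against WT, estimated by edgeR, of the tested genes of 6 CAR pathway lists and of the Cyp2b genes, in the libraries labelled Setd8-LKO + TCPOBOP and in WT + TCPOBOP, one point per gene, open where not called. Cyp2b10 lies at 9.84 and 10.12, right of every other gene drawn. Gm45225 (1 read in WT), Cyp2b9 in WT + TCPOBOP (failed the filter), and Sult2a1, Sult3a1 and Cyp2c65 (WT means under 1 count) are described in the text instead.

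Of all genes fitted between the treated groups, 11.1% were called higher and 19.0% lower. Called were 0 of 3 genes of the receptor and cofactor list and 2 of 19 phase I genes. Both were lower in the libraries labelled Setd8-LKO, Cyp2c54 at -1.92 on the log2 scale and the carboxylesterase Ces2a at -1.87. Of 8 phase II genes, Gstm3 and Gstm2 were called higher at 1.41 each and Sult3a1 lower at -2.73. Of 4 transporters Abcc4 was called higher at 1.66 and Slco1a1 lower at -2.46, of 5 growth and stress targets Ccnb1 (4.13) and the cell cycle factor Foxm1 (2.12) were called higher, and of 2 metabolic genes Scd1 was called lower at -2.47. The medians of the phase I and phase II lists were -0.31 and 0.37, beside -0.23 over all genes fitted.

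Because Cyp2b9 and Cyp2b13 are sex-biased, other sex-biased liver genes were read in these male livers. In WT + TCPOBOP 5 of 9 tested were called higher and 3 lower, beside 58.2% and 20.6% of all genes, among them Cyp3a44 at 2.89 and Cyp3a16 at 2.66, both known for female liver, and the male-predominant steroid dehydrogenase Hsd3b5 at -3.57. In the libraries labelled Setd8-LKO 8 of 16 were called higher and 7 lower, beside the 55.2% and 37.5% of all genes. The list holds genes known for female and for male liver, so counts by direction do not separate them. Among those called lower were Hsd3b5 at -10.32, the fatty acid elongase Elovl3 at -5.41 and the oxysterol hydroxylase Cyp7b1 at -4.94. Among those called higher were Sult2a1, from a mean of 0.6 to 484 normalized counts, Cyp2a4 at 2.36, Cyp3a44 at 2.08 and Cyp3a16 at 2.02. Between the treated groups 0 of 10 were called higher and 4 lower, beside 11.1% and 19.0% of all genes, Hsd3b5 at -6.75, Cyp7b1 at -2.89, Sult3a1 at -2.73 and Slco1a1 at -2.46. Sult2a1, Sult3a1 and Slco1a1 also stand in the CAR lists.

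Listed genes within 1 Mb of the members are given as values only. In WT + TCPOBOP 3 were tested, the coumarin hydroxylase Cyp2a5 at 1.64, the steroid hydroxylase Cyp2a4 at 1.5 and the pseudogene Cyp2a21-ps at 1.14, all called higher. Of all genes tested in that comparison, selected as changed, 58.2% were called higher and 20.6% lower. Setd8-LKO-labelled libraries had 12 tested, 5 called higher and 7 lower, in a table where 55.2% of all genes were called higher and 37.5% lower, so that nearly every listed gene is called there. Cyp2a5 (2.06), Cyp2a4 (2.36), Cyp2a21-ps (1.47), Nlrp9c (4.58) and Gm42375 (2.45) were higher. Cyp2f2, known from periportal hepatocytes, was lower at -3.32 with Gm15883 (-3.36), which overlaps it, and so were Ceacam1 (-1.68), Ceacam2 (-1.62), 4732471J01Rik (-1.58), Dmac2 (-1.55) and 4933430L12Rik (-1.13). Gm15883, Gm42375, 4732471J01Rik and 4933430L12Rik are annotated as antisense, and their reads cannot be told from those of overlapping genes where the counting did not use strand.

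Chromatin at the Cyp2b genes was read from 1 peak list per condition and assay, so that no value has a replicate check. H3K27ac, the acetylation of active enhancers and promoters, was assayed in 3 livers of each condition, ATAC-seq, which reads accessible DNA, in 3 and 5, the insulator protein CTCF in 4 and 2, and the cohesin subunit Smc3 in 3 and 2. A peak that shared 1 bp or more with a peak of the other condition is called kept, and any other gained or lost. Fold enrichments and -log10 p values are those of the authors' peak caller.

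The WT list held 0 H3K27ac peaks inside the 4 genes or within 50 kb of them, and its nearest peak lay 108.92 kb before Cyp2b10. The Setd8-LKO + TCPOBOP list held 13, all of them gained, where 25.5% of the 27752 peaks of that list were gained. Of the 13, 11 lay in one stretch from -10.7 kb to 5.89 kb of the Cyp2b10 start. Among 21951 protein-coding genes, 32 (0.146%) had as many gained H3K27ac peaks within 50 kb, with a median of 0. Gaps of 126 to 847 bp part the peaks of the stretch, so this number also depends on how the peak caller split it. Enrichments in the stretch went down to 4.8, above 1.02% of the list. The peak of highest enrichment, chr7:25895490-25897406, ended just before the start at a fold enrichment of 16.3 (-log10 p 85.9), above 62.1% of the list. The next inside the gene, chr7:25897664-25899752, reached 14.4, and the upstream peak chr7:25887959-25889673, centred at -8.80 kb, reached 14.4 as well. The other 2 lay in introns of Cyp2b13, chr7:26071714-26072051 at 16 and chr7:26082869-26083213 at 9.0. No H3K27ac peak lay inside Gm45225 or Cyp2b9.

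The map of the peaks across the locus shows these 13 beside the other assays.

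**Figure D5:**
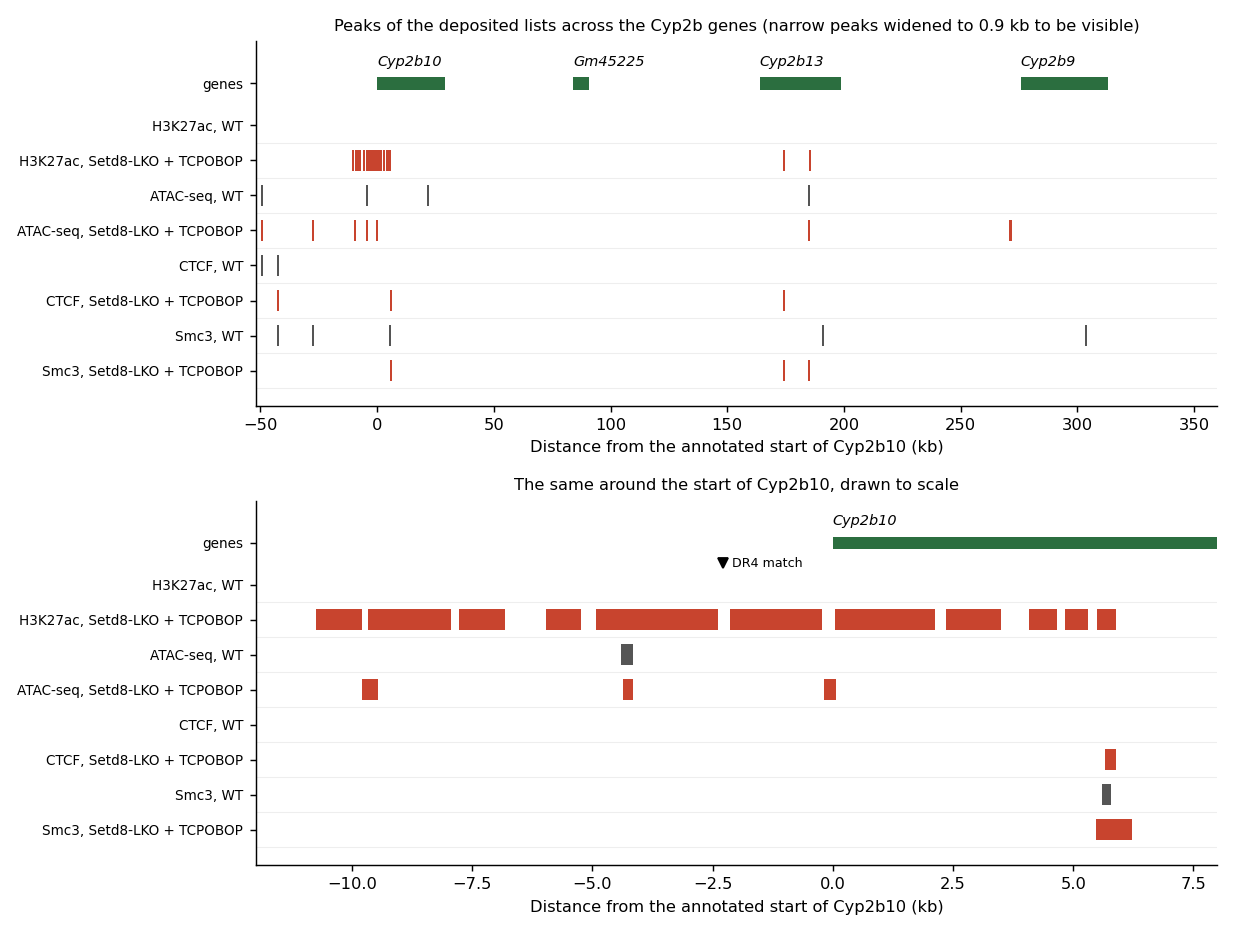
Peaks of the H3K27ac, ATAC-seq, CTCF and Smc3 lists of WT and Setd8-LKO + TCPOBOP by distance from the annotated start of Cyp2b10 in kb, across all 4 genes (upper panel, narrow peaks widened to 0.9 kb) and around Cyp2b10 (lower panel, to scale). H3K27ac is empty in WT and holds 11 peaks between -10.7 and 5.89 kb in Setd8-LKO + TCPOBOP.

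Short gaps lay between the H3K27ac peaks around Cyp2b10. The gap at the start of Cyp2b10, from chr7:25897407-25897663, coincided with an ATAC-seq peak of the Setd8-LKO + TCPOBOP list, chr7:25897430-25897690. The gap upstream of it, chr7:25895238-25895489 (plus strand, GRCm38.p6, 252 bases), is shown because it held the 1 DR4 match found, with the half-sites in capitals.

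Gap at -2.26 kb: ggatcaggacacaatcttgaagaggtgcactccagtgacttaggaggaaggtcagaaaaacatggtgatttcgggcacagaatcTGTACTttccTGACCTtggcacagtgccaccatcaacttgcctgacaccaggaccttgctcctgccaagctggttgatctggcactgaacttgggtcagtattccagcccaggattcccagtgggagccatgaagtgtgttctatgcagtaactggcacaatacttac

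Read on the minus strand the match is AGGTCAGGAAAGTACA at chr7:25895322-25895337, -2.29 kb from the start, with 2 mismatches to the repeat. The search covered 18 stretches, 300 bases at each of 11 ATAC-seq peaks and 7 H3K27ac gaps of up to 300 bases, besides the 3 promoter stretches above. Several of them overlap. Kept ATAC-seq peaks were searched once per list, and the gaps at -9.72 and -0.08 kb share bases with ATAC-seq stretches. The Cyp2b10 promoter stretch lies inside the gap at -0.08 kb. The number of stretches thus overstates the sequence searched. By the same rule 3.35% of 47278 windows of 300 bases on chromosome 7 held a match. The match is a description of letters, and no binding of CAR was measured here. No ATAC-seq peak of either list overlapped this gap.

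ATAC-seq peaks numbered 4 in the WT list and 7 in the Setd8-LKO + TCPOBOP list. Kept were 3, at -49.3 kb, at -4.28 kb and at 185 kb of the Cyp2b10 start, the last in an intron of Cyp2b13 with a fold enrichment of 11.5 in WT and 12.1 in Setd8-LKO + TCPOBOP. A WT peak in an intron of Cyp2b10, chr7:25919485-25919732, was lost. Gained were 4, chr7:25870066-25870232 at -27.5 kb, chr7:25887833-25888158 at -9.62 kb, the peak at the start of Cyp2b10, and chr7:26168882-26169077, -4.43 kb from the start of Cyp2b9. Across the lists, 14.4% of the Setd8-LKO + TCPOBOP peaks were gained and 27% of the WT peaks were lost. The peak at the start was weak, at a fold enrichment of 3.35 (-log10 p 27.5) that only 0.667% of its list lay below. At -9.62 kb the enrichment was 4.45, and at -4.28 kb it was 7.22 in WT and 3.23 in Setd8-LKO + TCPOBOP.

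CTCF had 1 kept peak, chr7:25855142-25855396 at -42.4 kb, 1 lost at -49.4 kb, and 2 gained. The gained peaks lay in an intron of Cyp2b10, chr7:25903291-25903502 at 5.78 kb (fold enrichment 15.3), and in an intron of Cyp2b13, chr7:26071736-26071933 (13.8). In all, 83.9% of the CTCF peaks of the Setd8-LKO + TCPOBOP list were gained and 41.9% of the WT peaks were lost, with 20905 against 5838 peaks, so 2 gained of 3 is no more than the list as a whole shows.

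Smc3 had 1 kept peak, in the intron of Cyp2b10 that also gained CTCF. It spanned chr7:25903210-25903410 with a fold enrichment of 12.3 in WT and chr7:25903099-25903834 with 39.3 in Setd8-LKO + TCPOBOP. The latter enrichment lay above 59.7% of its list and the former above 44.8% of the WT list. Gained were 2, both in introns of Cyp2b13, chr7:26071672-26072078 (23.7) and chr7:26082309-26082987 (19.4). Lost were 4, chr7:25855113-25855407 at the kept CTCF peak, chr7:25869915-25870187, and peaks in exons of Cyp2b13, chr7:26088663-26088901, and of Cyp2b9, chr7:26201185-26201408. Across the lists 76.0% were gained and 57.5% lost.

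At 5.7 kb in Cyp2b10 and at 174 kb in Cyp2b13, peaks of H3K27ac, CTCF and Smc3 overlapped in the Setd8-LKO + TCPOBOP lists. Of all CTCF peaks of that condition 51.8% overlapped both others. Lamin A/C islands, the broad regions in contact with the nuclear lamina, were absent from the genes and their 50 kb in both conditions, with the nearest 1957.62 kb (WT) and 2417.62 kb (Setd8-LKO + TCPOBOP) before Cyp2b10. H4K20Me3 islands, marks of heterochromatin, were absent too, the nearest 269.34 kb and 249.34 kb after Cyp2b9.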

How the data were processed

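RNA-seq counts per gene and library were deposited by the authors, who cleaned reads with PRINSEQ, mapped them with HISAT2 against mm10 and used metaseqR for counting and testing. The deposited normalized counts are a score, raw counts that the authors scaled by 1 factor per library and rounded. Not used were 114 further per-library columns, transformed counts, and the authors' own fold changes and p-values. Chromatin reads were trimmed with Trimmomatic 0.39, mapped, and freed of duplicates and blacklisted regions by the authors, with MACS2 2.2.7.1 for peaks and SICER for islands, 1 list per condition. Whether replicates were pooled is not given in the sources used here. The fold enrichment ratio and the -log10 p of peaks are deposited values of the authors.

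Raw counts were fitted with the quasi-likelihood functions of edgeR 4.0.16 (R 4.3.3), after filterByExpr at a minimum count of 10. Library sizes followed the authors' factors. P-values were adjusted after Benjamini and Hochberg over 18512 genes, the number tested by the authors as derived from their FDR divided by their p. Intervals at 95% assume a normal estimate. Alternatives used DESeq2 1.42.0, limma 3.58.1, other scalings, no filter, left-out libraries, a run term and a replicate block. The tests were checked on simulated data. Members and gene lists were chosen with earlier results of these data known. Named were all members, the 5 genes most like each, up to 4 called genes per list with the largest change, listed genes within 1 Mb, and some list genes chosen after their values were seen. The paper gives 4 and 5 biological replicates for RNA-seq, a term it uses for mice in its imaging assays. P-values measure the spread between these libraries.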

Additional observations from a re-analysis of the deposited data

Results flagged for a closer look

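Among 21 sets of values of the members, each the libraries of 1 group, 3 held a library far from the others by Dixon's test at the 95% level, where chance gives about 1 in 20. Gm45225 had a normalized count of 1 in WT replicate 5 and 0 in the others, and its share of Cyp2b10 was 0.943% there against 0 elsewhere. Both rest on 1 read. Cyp2b9 made up 0.975% of the Cyp2b10 count in WT + TCPOBOP replicate 5, whereas the median of the group was 0.0909% and its lowest library stood at 0.00716%.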

How the results depend on the processing

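Against WT, the 124 alternative values of the 4 members, with other scalings, filters, tools, fits and left-out libraries, were all called and higher. For Cyp2b9 in WT + TCPOBOP against WT these were only 2, 6.02 without the filter on low counts and 6.03 with all 3 groups in one fit. The genes tested were selected as changed in these libraries. In the main fits 55.2% of them were called higher and 37.5% lower where the label is Setd8-LKO, and 58.2% and 20.6% in WT + TCPOBOP. The calls of the members are therefore no independent check. Between the treated groups each member had 17 alternatives. The sign was kept in 16 for Cyp2b10, 15 for Cyp2b13, 14 for Gm45225 and 17 for Cyp2b9. TMM scaling turned Cyp2b10 to 0.00056, Cyp2b13 to 0.15 and Gm45225 to 0.11. Leaving out 1 library gave -0.49 to -0.14 for Cyp2b10, -0.29 to 0.012 for Cyp2b13, -0.49 to 0.015 for Gm45225 and 2.02 to 3.85 for Cyp2b9, where the turned signs came without Setd8-LKO + TCPOBOP replicate 2. Cyp2b9 was called in 1 of its 17, at 2.43 with p-values adjusted over the genes fitted (adjusted p = 0.0372 in edgeR, up to 1 over its alternatives), a setting under which the calls among all genes went from 56 higher and 96 lower to 89 and 138. Limma voom gave 3.86.

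Replicate numbers did not pair the libraries, since same-numbered libraries had correlations of their deviations from -0.145 to 0.00348 for Setd8-LKO + TCPOBOP against WT, from -0.372 to 0.3 in WT + TCPOBOP against WT and from -0.356 to -0.00161 between the treated groups, over 481 genes. With the replicate block the log2 fold change of Cyp2b10 was 10.36 and 10.37 against WT and -0.25 between the treated groups, Cyp2b9 was at 4.28 and Gm45225 at 0.031 there, and genes called lower in WT + TCPOBOP went from 140 to 66. The block changed no call of a member.

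Of 70 alternatives for the counts of CAR genes called, 59 stayed within 1.5 times. In the libraries labelled Setd8-LKO the 50 higher became 29 with DESeq2 size factors, and the 17 lower became 3 in the fit of all 3 groups, which holds fewer genes. In WT + TCPOBOP the 47 higher became 16 with DESeq2 size factors and 19 with TMM. The 1 lower became 4 with either scaling, 3 with the DESeq2 test, 2 with the replicate block or a run term, and 1 to 2 with 1 library left out. The cause was not tested.

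Among the peaks, with -log10 p of at least 20 in both lists 0 ATAC-seq peaks were lost, within 100 kb 5 were kept, within 20 kb 0 CTCF peaks were kept and 0 lost and 2 Smc3 peaks were lost, and with an overlap of 50% of both peaks 0 Smc3 peaks were kept. The 13 gained H3K27ac peaks stayed within 1.5 times. Depth limits the untreated values of Gm45225 and Cyp2b9, which rest on 1 and 10 reads.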
